A study of Saccharomyces cerevisiae with 36 samples.

Results

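The comparison described here is that of Saccharomyces cerevisiae strain 11 grown together with strain 12 against strain 11 grown alone, both sampled at 30 h. It holds 6 of the 36 libraries of the series, 3 from mixed culture and 3 from single culture, which were chosen by their labels for strain, culture and time. The study followed 2 wine strains, strain 12, which dominates, and strain 11, which is non-dominant, in Nebbiolo grape must at 12, 20 and 30 h. In mixed culture both strains were inoculated at equal density, and the last sample was taken when the stationary phase began. Both strains, in all groups, carried a fluorescent protein driven by the GPD promoter and a KANMX marker in their genome. The protein was GFP in some cultures and eSapphire in others, and the labels do not tell which of them a library's cells carried. The strains were separated by flow cytometry on this fluorescence, and their RNA was amplified and sequenced on a SOLiD system.

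The yeast cell is surrounded by a wall of glucan, chitin and mannoproteins. Damage to this wall is sensed by membrane proteins that act on a protein kinase cascade, and by the entry of calcium, which activates the phosphatase calcineurin and, through it, the transcription factor Crz1. The mitochondrial genome of yeast encodes a few subunits of the respiratory chain and of the ATP synthase, and several introns of its COX1 and COB genes hold reading frames of their own.

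The 6 libraries held between 66068 and 140459 reads on genes, and those of the whole series between 35400 and 530376. The median gene had 2 to 6 reads in these 6 libraries, and 3670 of the 6717 genes of the deposited tables had enough reads over the series to be tested. Levels are given in CPM, the counts of a gene scaled by the total on the tested genes and by TMM factors to one common library size. A gene was taken as changed when its adjusted p from the quasi-likelihood test of edgeR was at most 0.05.

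The identity of the sorted cells was looked at first, with transcripts that differ between the strains. SSU1, which encodes the sulfite pump of the plasma membrane, had 829 to 1288 CPM at 30 h in strain 12 alone and 542 to 818 CPM in its mixed cultures. In strain 11 it had 12.3, 15.3 and 16.3 CPM in single culture, from 1, 2 and 1 reads, and 301, 53.9 and 168 CPM in replicates 1, 2 and 3 of mixed culture, from 26, 7 and 17 reads. All 3 mixed libraries lay above the single ones, at 47.2, 8.46 and 26.4% of the mean of strain 12 in mixed culture, against 1.93 to 2.56% in single culture. YNL284C-B, a retrotransposon gene whose copies share sequence, had 123, 99.8 and 131 CPM in strain 11 grown alone, and 0 reads in strain 12 grown alone. After co-culture it had, in strain 11, 11.6, 69.3 and 29.6 CPM, from 1, 9 and 3 reads, which did not pass the test (adjusted p = 0.213). These are 9.82% (95% exact Poisson interval 0.249 to 54.7%), 58.8% (26.9 to 112%) and 25.2% (5.19 to 73.5%) of the mean of the single cultures, where the intervals cover counting error only. YNL284C-A, which overlaps it, had 98.4, 92.1 and 114 CPM in single and 11.6, 53.9 and 29.6 CPM in mixed culture, and YLR227W-B had 0 to 3 reads in each strain 11 library. Among the mixed libraries, replicate 2 thus had the least SSU1 and the most YNL284C-B, and replicate 1 the reverse.

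**Figure D1:**
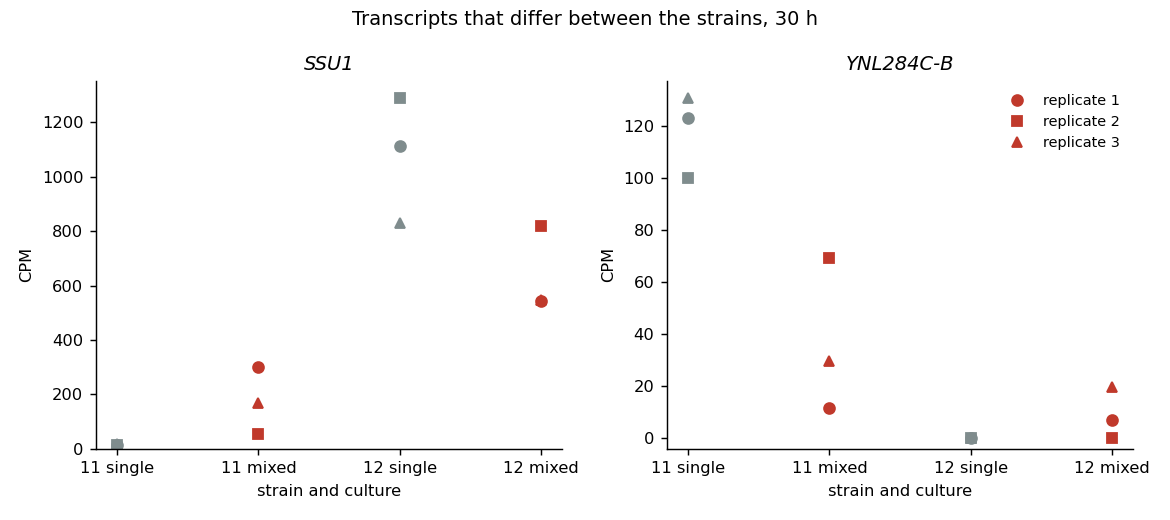
Level in CPM (linear axes) of SSU1 and YNL284C-B in each library at 30 h, grey for single and red for mixed culture, with a symbol for each replicate number. SSU1 was at 53.9 to 301 CPM in the 3 sorted strain 11 libraries from mixed culture, between strain 11 alone and strain 12, and YNL284C-B was at 11.6 to 69.3 CPM, below strain 11 alone.

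The other markers of strain 12 overlapped between the cultures of strain 11. YHB1, a flavohemoglobin, had 16.3 to 111 CPM in single culture and 197, 115 and 79.0 CPM in replicates 1, 2 and 3 of mixed culture. OPT2, an oligopeptide transporter, had 234 to 1240 CPM in single and 1098, 554 and 869 CPM in mixed culture. YHB1 was thus lowest in mixed replicate 3, unlike SSU1 and OPT2, which were lowest in replicate 2. Over all 3 markers the level in strain 11 was 16.8% ± 6.42 (SD, n = 3) of that in strain 12 in mixed culture, against 12.0% ± 6.74 (SD, n = 3) for the single cultures, which hold no strain 12. RNA of strain 12 cells in the sorted fraction and a change of SSU1 within strain 11 cannot be told apart here, nor can fewer cells of a kind and less RNA per cell. The level of strain 12 in mixed culture is given beside this for the genes called below, which were selected for their difference in strain 11. In 86 of the 90 genes that rose and in 44 of the 50 that fell, the mean of strain 12 in mixed culture lay between the single and the mixed mean of strain 11. Choosing genes for their difference in strain 11 favours this order, and its share over all tested genes is not given here. The part of strain 12 RNA in these changes was not tested. The exceptions among the rises were SSU1 and ERG10, with a higher level in strain 12 than in strain 11 in mixed culture, and ASN2 and SAH1, with a level in strain 12 below that of strain 11 alone. Among the falls they were AI2, BI3, COB and GTT1, with a lower level in strain 12, and MNN4 and THI20, with a level in strain 12 above that of strain 11 alone. ASN2, SAH1 and GTT1 are named here after their values were seen.

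The libraries sorted as strain 11 from mixed culture had more mRNA of some genes of the cell surface (NCW2, YPS1, CHS1) and of calcium signalling (CMK2, PMC1). They also had more mRNA of INO1, of inositol synthesis, and of GPD1, of glycerol formation. They had less mRNA of the mitochondrial genome, of 3 genes of thiamine synthesis and of the sulfate permease SUL2. The calls of GPD1, of the 3 thiamine genes and of all mitochondrial genes but AI2 were lost without mixed replicate 2. In all, 140 of the 3670 genes tested (3.81%) were changed, of which 90 (2.45%) were higher and 50 (1.36%) lower in mixed culture. The 90 genes rose by at least 1.10 on the log2 scale, with a median of 2.05, and the median of the 50 that fell was -1.75. The median over all genes tested was -0.02. The 3 mixed libraries lay entirely beyond the 3 single ones for 83 of the 90 rises and 48 of the 50 falls, whereas 10.1% of all tested genes lay entirely above and 8.72% entirely below. Before adjustment 656 genes had a p under 0.05. Of the 140 genes, 27 overlap another annotated gene, with which they can share reads.

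The size of these changes was not equal in the 3 mixed libraries. Replicate 2 was the highest mixed library in 74 of the 90 rises and the lowest in 42 of the 50 falls, and replicate 2 is also the library with the least SSU1. The 140 genes were chosen on a contrast that includes replicate 2, and its share over all tested genes is not given here. Without mixed replicate 2, 33 genes were called, 31 higher and 2 lower, all of them among the 140. Without replicate 1 of mixed culture 191 were called, and without replicate 2 of single culture 82. Whether the order of the libraries in these genes and their order in SSU1 and YNL284C-B are related was not tested. A set of 31 genes was called with each of the 6 libraries left out in turn, 29 higher and 2 lower, and those among the named genes are pointed out below.

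**Figure D2:**
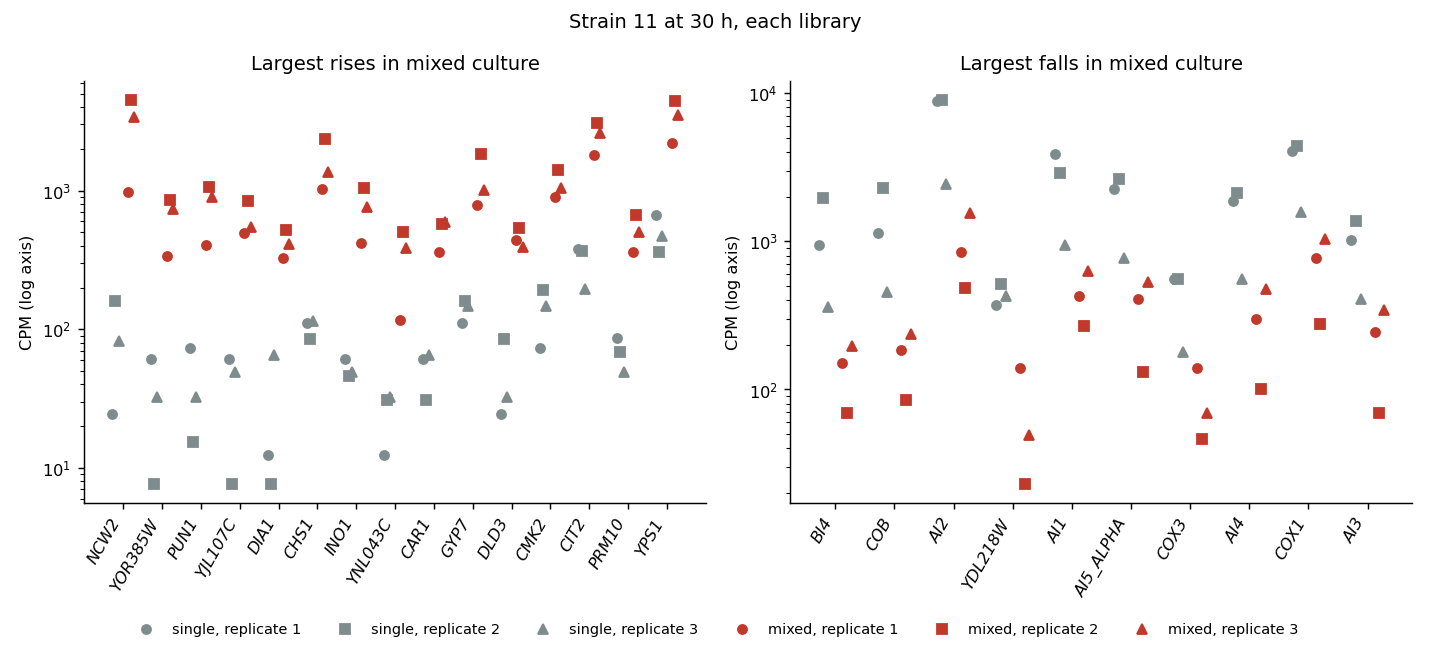
Level in CPM (log axis) of the 15 largest rises and the 10 largest falls with at least 20 reads on average, in each strain 11 library at 30 h, grey for single and red for mixed culture, with a symbol for each replicate. Mixed replicate 2 (red squares) was highest for NCW2 at 4486 CPM and lowest for AI2 at 485 CPM.

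The largest rises of well-counted genes included cell wall and surface proteins. NCW2, a protein of the wall (chromosome XII, 540811 to 541575, minus strand, build sacCer2), had 24.6, 161 and 81.6 CPM in single culture and 983, 4486 and 3378 CPM in mixed culture. The lowest mixed library was thus well above the highest single one, and the log2 fold change was 4.92 ± 0.53 (SE, adjusted p = 3.01e-09, edgeR). PUN1, a plasma membrane protein needed for wall integrity, had 73.8, 15.3 and 32.6 CPM in single culture and 405, 1054 and 899 CPM in mixed culture (log2 fold change 4.37 ± 0.56, adjusted p = 1.12e-07). YPS1, an aspartyl protease anchored at the cell surface (chromosome XII, 386512 to 388221, minus strand), went from 664, 361 and 473 CPM to 2209, 4394 and 3517 CPM (2.77 ± 0.35, adjusted p = 9.44e-08). These 3 genes kept their call whichever library was left out.

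Of the 33 tested wall and surface proteins in the list, 7 rose and 2 fell (27.3%, against 3.81% of all genes). The median of the list, -0.08, was near that of all genes. The other rises were YPS3, a protease related to YPS1 (1.93 ± 0.52), PLB1, a phospholipase B (1.45 ± 0.37), PST1, a wall protein known to be induced when the wall is damaged (1.43 ± 0.36), and HSP150, a mannoprotein (1.29 ± 0.36). YPS3, PLB1, PST1 and HSP150 are also in the study's co-culture list, which was chosen on these same libraries. The mixed libraries of PST1, at 624, 1870 and 1274 CPM, lay above the single ones, at 283, 553 and 571 CPM, but replicate 1 only by a little. The falls were FLO10, a flocculin (-1.42 ± 0.43), and PRY3, a wall-associated protein (-1.05 ± 0.31). Without mixed replicate 2, 3 of the 7 rises and 0 of the 2 falls were called. Without single replicate 1 these counts were 4 and 0, and both falls were also lost without mixed replicate 3 or single replicate 2.

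Chitin and the sugar chains of mannoproteins were represented by fewer genes. CHS1, the chitin synthase that repairs the septum after cell separation (chromosome XIV, 276503 to 279898, plus strand), had 111, 84.4 and 114 CPM in single culture and 1029, 2355 and 1353 CPM in mixed culture. With a log2 fold change of 3.97 ± 0.46 (adjusted p = 1.09e-08) its groups were far apart, and the call was kept with each library left out. CHS5, needed to bring another chitin synthase to the surface, rose by 1.49 ± 0.38 (adjusted p = 0.0127), a call that was lost without mixed replicate 2 or without single replicate 1 or 2. They were 2 of 30 tested genes of glucan and chitin enzymes (6.67%, against 2.45% of all genes higher), none of which fell. Of the 30, 20 had a negative log2 fold change (median -0.16). In the list of 24 mannosylation genes, MNN14 (1.76 ± 0.39) and VAN1 rose and MNN4 fell (-1.22 ± 0.34), 12.5% against 3.81% of all genes. VAN1, a subunit of a mannan polymerase, rested on 2 reads in all single and 22 reads in all mixed libraries, a ratio of 10.2 (95% counting interval 2.50 to 89.3). Without mixed replicate 2 none of the 3 mannosylation genes was called.

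Calcium signalling held several of the rises. Of 17 tested genes of calcium and calcineurin signalling, 5 rose (29.4%, against 2.45% of all genes) and none fell (median 0.27). All of these but RCN1 are also in the study's co-culture list, which was chosen on these same libraries. CMK2, a calmodulin-dependent protein kinase, had 73.8, 192 and 147 CPM in single culture and 902, 1408 and 1047 CPM in mixed culture (2.98 ± 0.41, adjusted p = 6.3e-07). RCN2, an inhibitor of calcineurin, went from 123, 253 and 114 CPM to 451, 877 and 632 CPM (1.93 ± 0.40, adjusted p = 0.00143), and PMC1, the calcium pump of the vacuole, from 394, 468 and 261 CPM to 775, 1270 and 1235 CPM (1.52 ± 0.31, adjusted p = 0.000939). In these 3 genes the groups did not overlap and no left-out library ended the call. RCN1, a related regulator of calcineurin, had 0, 3 and 2 reads in single and 10, 41 and 12 reads in mixed culture (3.30 ± 0.80, adjusted p = 0.00926), and was lost without mixed replicate 2 or single replicate 1. CRZ1 itself overlapped between the groups, with 295, 92.1 and 65.3 CPM against 278, 546 and 464 CPM, and although it passed the test (1.52 ± 0.42, adjusted p = 0.0239) it did not pass without single replicate 2 or 3 or mixed replicate 2 or 3. Without mixed replicate 2, 3 of the 5 genes were called.

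Crz1 binds a short element in promoters, so the letters of this element, GNGGCNCA, were searched on both strands in the 300 bases from 250 before to 50 after the start codon of each gene in the RefSeq genome R64. They were found for 6 of 89 genes that rose (6.74%), for 0 of 37 that fell and for 134 of 3549 tested genes (3.78%). A match is a description of these letters and not evidence of a bound site. The 5 named genes that rose and hold them are printed below as the promoters behind this count, 5′ to 3′ on the strand of the gene, with the match in capitals. They belong to YOR385W (chrXV:1064793-1065092, plus strand), CAR1 (chrXVI:339694-339993, plus strand), GYP7 (chrIV:36428-36727, minus strand), HAL5 (chrX:109412-109711, minus strand) and PMC1 (chrVII:485671-485970, plus strand).
YOR385W: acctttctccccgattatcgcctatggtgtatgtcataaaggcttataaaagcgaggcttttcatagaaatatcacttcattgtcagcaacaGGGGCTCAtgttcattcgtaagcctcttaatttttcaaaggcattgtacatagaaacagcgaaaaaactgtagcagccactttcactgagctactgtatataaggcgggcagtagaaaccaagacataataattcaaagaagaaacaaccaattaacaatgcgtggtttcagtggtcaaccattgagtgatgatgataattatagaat
CAR1: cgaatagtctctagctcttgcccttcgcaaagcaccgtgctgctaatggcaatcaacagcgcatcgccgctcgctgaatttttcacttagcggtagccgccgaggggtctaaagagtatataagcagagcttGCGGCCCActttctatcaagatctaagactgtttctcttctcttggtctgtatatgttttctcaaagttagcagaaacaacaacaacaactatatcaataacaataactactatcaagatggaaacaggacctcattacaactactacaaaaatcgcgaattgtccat
GYP7: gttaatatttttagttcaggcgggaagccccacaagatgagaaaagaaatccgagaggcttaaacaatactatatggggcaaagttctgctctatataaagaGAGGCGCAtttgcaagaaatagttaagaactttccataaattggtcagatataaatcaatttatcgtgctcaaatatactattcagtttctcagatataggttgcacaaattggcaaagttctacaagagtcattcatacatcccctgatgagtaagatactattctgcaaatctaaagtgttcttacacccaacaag
HAL5: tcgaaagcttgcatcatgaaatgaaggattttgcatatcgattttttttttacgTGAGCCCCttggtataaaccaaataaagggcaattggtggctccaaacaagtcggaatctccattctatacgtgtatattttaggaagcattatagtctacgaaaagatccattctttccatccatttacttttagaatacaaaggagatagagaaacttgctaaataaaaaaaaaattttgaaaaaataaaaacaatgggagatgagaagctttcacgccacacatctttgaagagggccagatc
PMC1: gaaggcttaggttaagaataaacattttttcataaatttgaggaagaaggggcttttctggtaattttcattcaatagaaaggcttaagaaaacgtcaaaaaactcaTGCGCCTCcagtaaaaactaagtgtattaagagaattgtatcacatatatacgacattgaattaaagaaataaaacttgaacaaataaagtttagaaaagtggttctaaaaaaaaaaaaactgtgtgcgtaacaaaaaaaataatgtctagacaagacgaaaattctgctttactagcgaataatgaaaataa
The match starts 158 bases before the start codon in YOR385W, 118 in CAR1, 148 in GYP7, 196 in HAL5 and 143 in PMC1, and it is on the opposite strand in HAL5 and PMC1. Shares of the other elements searched were as follows, for genes that rose, genes that fell and all tested genes. The palindromic element of Rlm1 was found in 6.74, 8.11 and 5.64%, and CATGTG, bound by Ino2 and Ino4, in 8.99, 5.41 and 6.54%. AGGGG, the stress response element, was found in 32.6, 35.1 and 25.1%, and GATAAG, an element of GATA factors, in 15.7, 27.03 and 15.6%.

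Among these promoters, that of YOR385W belongs to one of the largest rises. YOR385W encodes a protein of unknown function and had 61.5, 7.67 and 32.6 CPM in single culture and 335, 862 and 741 CPM in mixed culture (4.39 ± 0.59, adjusted p = 2.7e-07). HAL5, a protein kinase that acts on potassium uptake, had 320, 315 and 359 CPM in single culture and 844, 1108 and 978 CPM in mixed culture, with little spread in either group (1.57 ± 0.36, adjusted p = 0.00459). GYP7, which activates the GTPase of the vacuolar Rab protein Ypt7, went from 111, 161 and 147 CPM to 786, 1839 and 1017 CPM (3.11 ± 0.41, adjusted p = 2.36e-07). PEP12, the receptor for vesicles that fuse with the late endosome, went from 185, 154 and 81.6 CPM to 358, 523 and 464 CPM (1.64 ± 0.37, adjusted p = 0.00364). GYP7 and PEP12 were the 2 of 11 tested genes of endosome and vacuole traffic that changed (18.2%, against 3.81% of all genes). They were called with each library left out, and both are in the study's co-culture list, which was chosen on these same libraries.

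Sensors and kinases of the wall integrity cascade held 1 change at the mRNA level (6.25%, against 3.81% of all genes). Of 16 tested genes MID2, a sensor of wall stress, passed the test, with 98.4, 23.02 and 32.6 CPM in single culture and 92.5, 439 and 168 CPM in mixed culture (2.27 ± 0.56, adjusted p = 0.0101). Its mixed replicate 1 lay inside the range of the single libraries, and the call was lost without mixed replicate 2 or single replicate 2.

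Among the tested genes of lipid synthesis the largest rise was in INO1, which encodes the enzyme that makes inositol phosphate from glucose 6-phosphate. It had 61.5, 46.05 and 48.96 CPM in single culture and 416, 1039 and 761 CPM in mixed culture, a log2 fold change of 3.83 ± 0.47 (adjusted p = 3.59e-08) that no single library decided. INO1 was the 1 of 19 tested genes of inositol and phospholipid synthesis that changed (5.26%, against 3.81% of all genes). The median of this list was -0.01, with 9 genes positive and 10 negative. In sphingolipid synthesis, where inositol is used for the head groups, 2 of 21 rose (9.52%, against 2.45% of all genes). They were IPT1 (2.46 ± 0.48, adjusted p = 0.000708) and SUR1 (1.31 ± 0.38, adjusted p = 0.033), which both add to these head groups. SUR1 was not called without mixed replicate 2 or 3 or single replicate 1 or 3. Of 26 ergosterol genes 1 rose (3.85%, against 2.45% of all genes), ERG10, the acetoacetyl-CoA thiolase at the start of the pathway (1.78 ± 0.48). ERG10 had 185 to 247 CPM in mixed culture, 30.7 to 114 CPM in single culture and 235 CPM on average in strain 12 in mixed culture. It too was lost without mixed replicate 2 or 3 or single replicate 1 or 2.

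In central metabolism few genes passed the test. On simulated data the fit recovered 13.2% of the genes with a log2 change of 1 at 30 h. A moderate shift of a whole pathway is therefore not excluded. CIT2, the peroxisomal citrate synthase, and DLD3, a dehydrogenase of 2-hydroxy acids, are both classical targets of the retrograde pathway, which signals from mitochondria to the nucleus. CIT2 had 381, 368 and 196 CPM in single culture and 1792, 3093 and 2598 CPM in mixed culture (2.95 ± 0.36, adjusted p = 3.59e-08), and DLD3 had 24.6, 84.4 and 32.6 CPM against 439, 539 and 395 CPM (3.10 ± 0.54, adjusted p = 9.42e-05). Both were called with each library left out. They were 2 of the 11 tested genes of this list (18.2%, against 3.81% of all genes), and the other 9 did not pass. The log2 fold changes of these 9 ran from -0.51 (IDH2) to 1.00 (PYC1), with CIT1 at 0.29, IDH1 at 0.07 and ACO1 at -0.19. HXK2, the main hexokinase during growth on glucose, went from 61.5, 107 and 48.96 CPM to 254, 577 and 296 CPM (2.28 ± 0.47, adjusted p = 0.00106). HXK2 was the 1 of 23 genes of glycolysis and alcohol formation that changed (4.35%, against 3.81% of all genes). ALD6, which oxidises acetaldehyde to acetate in the cytosol, went from 1033, 1197 and 898 CPM to 2590, 5832 and 4583 CPM (2.05 ± 0.34, adjusted p = 4.37e-05). ALD6 was the 1 of 18 genes of acetate and acetyl-CoA metabolism and gluconeogenesis that changed (5.56%, against 3.81% of all genes). The call of HXK2 was lost without mixed replicate 2, and that of ALD6 was kept with each library left out.

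Glycerol formation and uptake were higher in 3 of 12 tested genes (25%, against 2.45% of all genes). GPD1, which makes glycerol 3-phosphate, had 1095, 1604 and 1681 CPM in single culture and 3076, 3486 and 2914 CPM in mixed culture (1.11 ± 0.30, adjusted p = 0.0192). GPP2, the phosphatase of the next step, rose by 1.39 ± 0.36 (adjusted p = 0.0123), and STL1, which imports glycerol with protons, by 2.25 ± 0.56 (adjusted p = 0.0101). Their groups did not overlap, yet without mixed replicate 2 or single replicate 1 none of the 3 was called. In the Ehrlich pathway, which turns amino acids into fusel alcohols, 2 of 14 rose and 1 fell (21.4%, against 3.81% of all genes). ARO10, a decarboxylase of this pathway, had 24.6, 92.1 and 32.6 CPM against 127, 554 and 336 CPM (2.61 ± 0.57, adjusted p = 0.00276), and ADH6, an alcohol dehydrogenase, rose by 2.08 ± 0.52. PDC6, a minor pyruvate decarboxylase, fell from 2472, 2195 and 1893 CPM to 1503, 677 and 622 CPM (-1.24 ± 0.31, adjusted p = 0.0101). Without mixed replicate 2 neither ARO10, ADH6 nor PDC6 was called, ADH6 was also lost without single replicate 1 or 2, and PDC6 without single replicate 1 or mixed replicate 3.

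Nitrogen, sulfur and vitamin genes went in both directions. CAR1, the arginase, had 61.5, 30.7 and 65.3 CPM in single culture and 358, 577 and 593 CPM in mixed culture (3.37 ± 0.49, adjusted p = 1.65e-06), a call kept with each library left out. It was the only rise among 36 tested genes of nitrogen uptake and use, of which 2 fell (8.33% changed, against 3.81% of all genes). OPT1, a transporter of glutathione and oligopeptides, fell from 2804, 2893 and 3035 CPM to 1526, 654 and 988 CPM (-1.47 ± 0.30, adjusted p = 0.00115). PUT1, the proline oxidase, had 13850, 16568 and 14998 CPM against 8811, 6579 and 9799 CPM (-0.85 ± 0.24, adjusted p = 0.0322), and it lost its call when any 1 of the 6 libraries was left out. The call of OPT1 was lost without mixed replicate 2.

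SUL2, a sulfate permease, had 689, 637 and 751 CPM in single culture and 231, 131 and 168 CPM in mixed culture. This fall (-1.98 ± 0.40, adjusted p = 0.000837) was kept with each library left out, and the groups were well apart. ADI1, of methionine salvage, rose by 2.25 ± 0.57 (adjusted p = 0.0123, lost without mixed replicate 2 or single replicate 2 or 3). With SUL2 this made 10% of the 20 tested sulfur genes, against 3.81% of all genes, and left 18 without a call. In thiamine and vitamin B6 synthesis, 3 of 16 fell and 1 rose (25%, against 3.81% of all genes), and the median of the list was -0.99. THI4, which makes the thiazole part of thiamine, had 1513, 3922 and 4112 CPM in single culture and 1318, 800 and 1334 CPM in mixed culture (-1.47 ± 0.38, adjusted p = 0.0148), so that mixed replicates 1 and 3 lay close below single replicate 1. THI20 fell by 1.20 ± 0.33 (adjusted p = 0.0244). THI13, of the pyrimidine branch and a member of a family of near-identical copies, had 30 reads in all single and 3 in all mixed libraries, a ratio of 10.8 (95% counting interval 3.36 to 55.3). SNZ1, of vitamin B6 synthesis, had 9, 1 and 0 reads in single and 16, 36 and 43 reads in mixed culture (2.95 ± 0.60, adjusted p = 0.000939) and was called with each library left out. The 3 falls were lost without mixed replicate 2 and without single replicate 2 or 3.

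**Figure D3:**
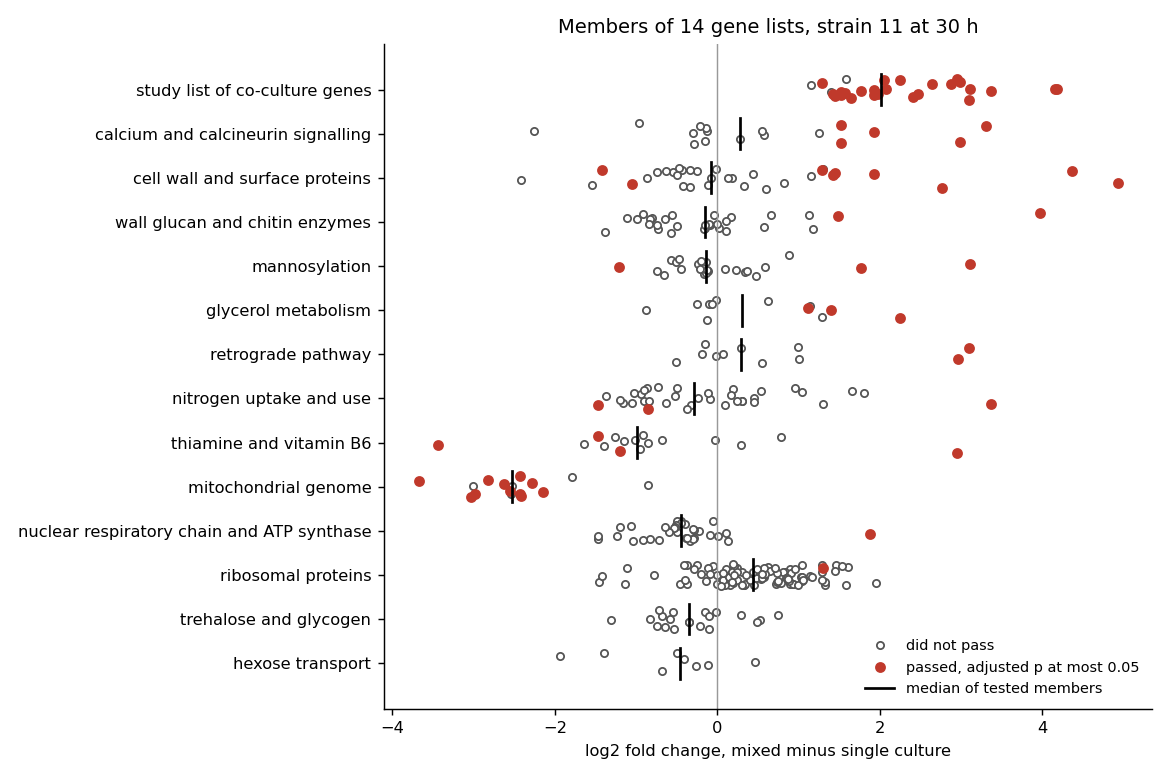
Log2 fold change (mixed minus single culture, strain 11 at 30 h) of each tested member of 14 gene lists, with filled points for members that passed the test and a bar at the median. The study list has its median at 2.02 and the mitochondrial genome at -2.53, while the medians of the other 12 lists lie between -0.99 and 0.44.

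The transcripts of the mitochondrial genome were lower in mixed culture. Of its 28 genes 16 had enough reads, all 16 with a negative log2 fold change (median -2.53), and 11 fell (68.8%, against 1.36% of all genes). They are not 11 independent measurements, because the intron frames AI1 to AI5_ALPHA, with AI3 and AI4 among them, overlap COX1 and BI3 and BI4 overlap COB. COX1, a subunit of cytochrome c oxidase (mitochondrial genome, 13818 to 26701, plus strand, sacCer2), had 4084, 4420 and 1567 CPM in single culture and 775, 277 and 1037 CPM in mixed culture (-2.29 ± 0.55, adjusted p = 0.00857). AI2, a reading frame that runs into an intron of COX1 (13818 to 18830), fell from 8869, 8940 and 2448 CPM to 844, 485 and 1551 CPM (-2.82 ± 0.56, adjusted p = 0.000837). COB, the cytochrome b gene, fell from 1132, 2279 and 457 CPM to 185, 84.6 and 237 CPM (-2.99 ± 0.72, adjusted p = 0.00792). ATP6, a subunit of the ATP synthase, had 40, 63 and 7 reads in single and 2, 1 and 6 reads in mixed culture (-3.67 ± 1.04, adjusted p = 0.0293), and COX3 had -2.43 ± 0.68 (adjusted p = 0.0271). In each of these 5 genes single replicate 3 lay nearest to the mixed libraries. The mean of strain 12 in mixed culture was 1413 CPM for COX1, above the mixed libraries of strain 11, but 555 CPM for AI2 and 148 CPM for COB, below the mixed mean of strain 11.

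The share of all reads that fell on mitochondrial genes shows how the libraries differed. It was 2.59, 2.69 and 0.755% in the single cultures of strain 11 at 30 h and 0.374, 0.170 and 0.562% in its mixed cultures, without overlap. The libraries of strain 12 at 30 h had 0.380 to 0.660% in single and 0.319 to 0.737% in mixed culture, all of them below single replicate 3 of strain 11. At 12 h strain 11 had 1.24, 3.84 and 1.27% in single and 0.640, 1.15 and 0.644% in mixed culture, and at 20 h 1.55, 2.43 and 0.449% against 0.597, 0.458 and 0.487%. Single replicates 1 and 2 thus carry most of the difference at 30 h. The number of mitochondrial genes called lower was 1 without mixed replicate 2, 2 without single replicate 2, 7 without single replicate 1 and 13 without single replicate 3. AI2 alone kept its call with each library left out.

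**Figure D4:**
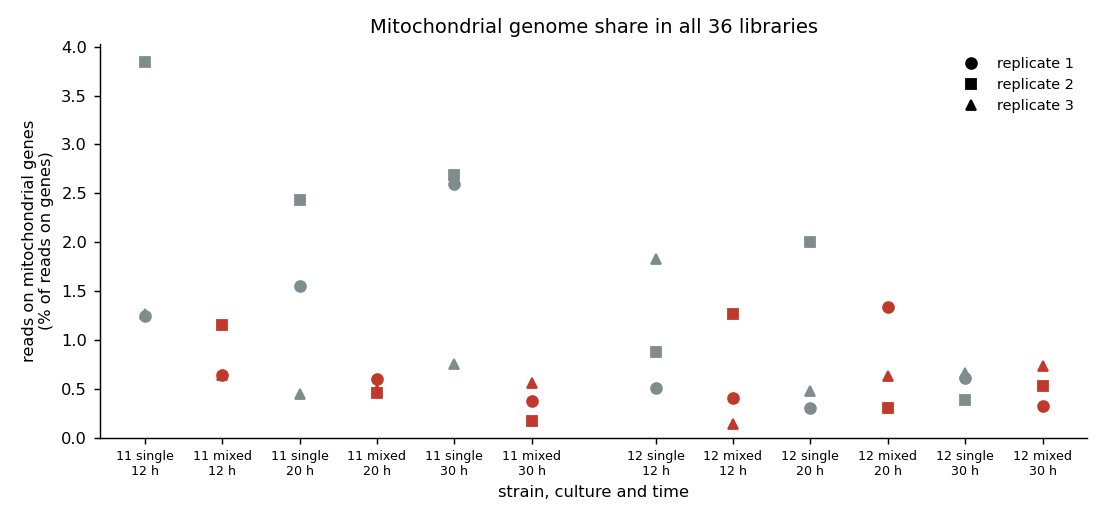
Share of the reads on genes that fell on the 28 genes of the mitochondrial genome, in percent (linear axis from 0), for each library by strain, culture and time, grey for single and red for mixed culture. At 30 h strain 11 had 0.755 to 2.69% in single and 0.170 to 0.562% in mixed culture, while all libraries of strain 12 at 30 h had 0.319 to 0.737%.

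The nuclear genes of the respiratory chain and the ATP synthase did not pass in number. Of 33 tested, 29 had a negative log2 fold change (median -0.45) and 0 fell by the edgeR test, although 6 of the 33 had an unadjusted p under 0.05. NDE1, an NADH dehydrogenase of the outer face of the inner membrane, rose instead, from 86.1, 30.7 and 81.6 CPM to 162, 300 and 207 CPM (1.87 ± 0.47, adjusted p = 0.0112). SOD2, the superoxide dismutase of mitochondria, fell by 1.01 ± 0.30 (adjusted p = 0.0373) as the 1 of 22 genes of oxidative stress defence (4.55%). HAP1, a heme-dependent transcription factor, fell by 1.19 ± 0.29 (adjusted p = 0.0101) as the 1 of 13 oxygen and heme regulated genes (7.69%). Of all genes 3.81% changed. The calls of NDE1, SOD2 and HAP1 were each lost without mixed replicate 2 and without at least 1 other library.

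The list of 28 genes that the study singled out for co-culture was chosen by the study on these same libraries, so its count is not independent evidence. All 28 were positive, with a median of 2.02, and 25 passed. PHO84, a phosphate transporter (1.40, adjusted p = 0.145), ROG3 (1.58, adjusted p = 0.111) and TOH1 (1.15, adjusted p = 0.0909) did not. The study listed genes over-expressed at 2 or more times and in the non-dominant strain only. It gives no value at 30 h for ADI1, BAG7, CRZ1, HAL5, HSP150, PEP12, PLB1, PMC1, PST1 and SNZ1, which passed here. The study used Cuffdiff on FPKM, which is another test than the edgeR fit used here. HAL5, PEP12, PMC1 and SNZ1 kept their calls with each library left out. BAG7 was lost without mixed or single replicate 2 or 3, and HSP150 without mixed replicate 2 or single replicate 1 or 2. Members not yet described include DIA1, of unknown function, with 12.3, 7.67 and 65.3 CPM in single and 324, 516 and 415 CPM in mixed culture (4.15 ± 0.60, adjusted p = 1.65e-06). YJL107C, an uncharacterised gene that overlaps another, had 61.5, 7.67 and 48.96 CPM against 497, 846 and 543 CPM (4.18 ± 0.61, adjusted p = 1.65e-06). PRM10, named for its response to pheromone, had 86.1, 69.1 and 48.96 CPM against 358, 669 and 504 CPM (2.88 ± 0.51, adjusted p = 9.69e-05) and overlaps another gene as well. FET4, a transporter of iron and other metals, had 111, 84.4 and 147 CPM against 289, 1247 and 504 CPM (2.65 ± 0.49, adjusted p = 0.000292), which rests most on replicate 2. AIM17 rose by 2.41 ± 0.41. With mixed replicate 2 left out 15 of the 28 passed. Outside this list, YNL043C, an uncharacterised gene among the largest rises, had 1, 4 and 2 reads in single and 10, 65 and 39 reads in mixed culture (3.70 ± 0.64, adjusted p = 8.09e-05). It overlaps YIP3, named for this reason, with 3, 3 and 1 against 12, 61 and 36 reads (3.63 ± 0.57, adjusted p = 1.09e-05), and the reads of the pair cannot be told apart.

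Few genes of growth or reserve metabolism passed. Among 98 tested ribosomal protein genes 79 had a positive log2 fold change (median 0.44), and 1, RPS19B, rose (1.30 ± 0.37, adjusted p = 0.0309), a share of 1.02% that is below the 3.81% of all genes. Neither the 29 tested genes of RNA polymerase I and ribosome biogenesis (median -0.47) nor the 20 of trehalose and glycogen (median -0.35) nor the 8 hexose transporters (median -0.46) held a gene that passed in edgeR, while 6, 2 and 2 of them had an unadjusted p under 0.05. Of 28 cell cycle and daughter-specific genes 25 were negative (median -0.59), and DSE4, a glucanase that degrades the septum from the daughter side, fell by 1.06 ± 0.32 (adjusted p = 0.0438). CPR6 was the 1 of 29 heat shock and chaperone genes to rise (1.54 ± 0.47, adjusted p = 0.0481), FET4 the 1 of 27 of phosphate and metal uptake, YPS1 the 1 of 15 of vacuolar proteases and autophagy and PRM10 the 1 of 5 of the pheromone response. In the 12 stationary phase genes, SNZ1 rose and SIP18, a protein of osmotic and desiccation stress, fell by 1.69 ± 0.46 (adjusted p = 0.0227). RPS19B, DSE4, CPR6 and SIP18 were not called without mixed replicate 2, and the first 3 of them not without 4 further libraries either.

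The response at 30 h was set beside that of strain 11 at earlier times, with the difference of the responses tested. This test took the libraries as independent, although the paper drew aliquots at 3 phases of the fermentations. Of the 90 rises, 50 were called in the same direction at 12 h and 56 at 20 h, where 5.26 and 3.11% of all genes were called higher, and 8.61 and 4.99% in either direction. Of the 50 falls, 7 and 16 were called, where 3.35 and 1.88% were called lower. In all, 41 of the 140 were called in 1 direction at all 3 times and 50 at 30 h alone, which by itself does not show that their response differed. The response at 30 h differed from that at 20 h for 0 genes by edgeR (smallest adjusted p = 0.417, 188 genes at an unadjusted p under 0.05) and for 0 by DESeq2. From that at 12 h it differed for 90 genes (2.45%), 29 (0.79%) with a higher and 61 (1.66%) with a lower response at 30 h. Without mixed replicate 2 at 30 h this count was 43, and without mixed replicate 1 at 12 h it was 56. The strain 11 libraries had 59809 to 120796 reads on genes at 20 h and 140239 to 530376 at 12 h. The counts of 0 and 90 therefore do not show that the response at 30 h was nearer to that at 20 h.

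Several metabolic genes responded differently at 30 h and at 12 h. ARO10 was lower in mixed culture at 12 h (-2.60) and higher at 30 h, a difference of 5.21 ± 0.70 (adjusted p = 9.43e-07). CIT2 had 0.59 at 12 h and 2.95 at 30 h, a difference of 2.36, and HXK2 had -0.63 and 2.28, a difference of 2.91. DLD3 had 0.54 and 3.10, a difference of 2.56, whose call was lost without mixed replicate 2 and 4 other libraries. NCW2 had 3.25 at 12 h, 5.38 at 20 h and 4.92 at 30 h, CHS1 had 3.36, 4.66 and 3.97, CMK2 had 2.76, 2.75 and 2.98, and PMC1 had 2.90, 1.59 and 1.52. In these 4 genes the difference between 30 and 12 h did not pass the test (adjusted p = 0.234, 0.724, 0.899 and 0.0646). PDC6 went the other way, from 2.34 at 12 h to -1.24 at 30 h, a difference of -3.57, and THI4 from 0.61 to -1.47, a difference of -2.08 that was lost without mixed replicate 2 and 4 other libraries.

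**Figure D5:**
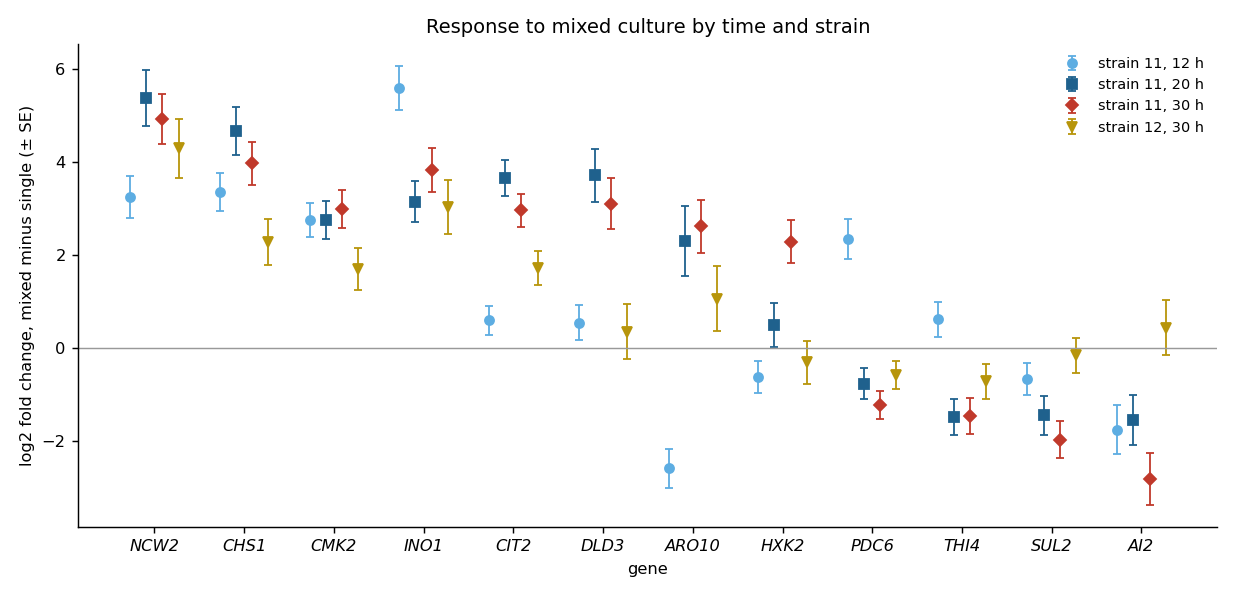
Log2 fold change (mixed minus single culture, ± SE of the edgeR fit) of 12 genes in strain 11 at 12, 20 and 30 h and in strain 12 at 30 h. NCW2, CHS1, CMK2 and INO1 were above 2 at each time in strain 11, CIT2, DLD3 and HXK2 were under 1 at 12 h, and ARO10 was at -2.60 there.

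Strain 12 from mixed culture changed in fewer genes at 30 h, 8 of 3670 (0.218%), of which 7 (0.191%) were higher and 1 (0.0272%) lower, and the 7 higher were all among the 90 rises of strain 11. They were NCW2, YOR385W, CHS1, INO1, CIT2, YPS1 and NCE103, the carbonic anhydrase, and the lower one was THI22 (-2.43 in strain 12 and -1.15 in strain 11, adjusted p = 0.199 there). NCE103 and THI22 are named after their values were seen. The 90 genes had a median of 0.76 in strain 12, with 71 of them positive, and the 50 falls a median of -0.23, with 38 negative. NCW2 had 4.29 ± 0.63 in strain 12, INO1 3.03 ± 0.59, YOR385W 3.92 and CHS1 2.27 ± 0.50. CAR1 had 3.00 and did not pass (adjusted p = 0.0508, edgeR). In each of these genes mixed replicate 1 of strain 12 was the highest, with 1648, 425 and 235 CPM for NCW2 and 723, 170 and 196 CPM for CHS1. YNL284C-B, without reads in strain 12 alone, had 1, 0 and 1 reads in its mixed libraries. The part of strain 11 RNA in the strain 12 changes was not tested. GYP7 had 0.76, as did the median rise. Other genes were nearer 0 there, such as DLD3 (0.34), HXK2 (-0.32), SUL2 (-0.16) and AI2 (0.43). When the difference between the strains was tested, 1 gene (0.0272%) passed (309 at an unadjusted p under 0.05, and 1 by DESeq2). This was SSU1, with 3.44 in strain 11 and -0.74 in strain 12, a difference of 4.18 (adjusted p = 0.00618), and it did not pass without strain 11 mixed replicate 1 or single replicate 1 or 2, which left 0 genes. For the other 139 genes the strains' responses were not shown to differ.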

How the data were processed

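The series holds 36 libraries of 2 strains, 2 cultures and 3 times, 3 libraries in each of the 12 groups. The authors deposited, per library, a gene table with the raw read count and the RPKM of every gene, made from alignments to sacCer2. Exon tables beside them, of which only the read totals were used, to recompute the RPKM, name LifeScope as the counter, in a version not given in the sources used here. Likewise unstated are the mapping quality filter and whether strand was used. The submitters' processing notes name Cuffdiff and Cufflinks 1.3.0. The deposited RPKM could be recomputed from the counts for 100% of genes.

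Counts were tested with edgeR 4.0.16 (R 4.3.3, limma 3.58.1), with filterByExpr, TMM factors and 1 coefficient per group over all 36 libraries, so that all groups share an estimate of the spread. P-values were two-sided and Benjamini-Hochberg adjusted over all 3670 genes, with 0.05 as the threshold. Differences of responses were contrasts in the same fit, which took all 36 libraries as independent. The paper drew aliquots at 3 phases of the fermentations and sorted both strains from the mixed cultures. Libraries of different times, and mixed libraries of the 2 strains, can therefore come from the same flasks. These contrasts are thus not tests on independent cultures. The fit was tested beforehand on data simulated with 197 changed genes. For the comparison at 30 h it recovered 38.6% of them, 13.2% of those with a log2 change of 1 and 62.9% at 2. It recovered 9.14% for the difference between the strains, 12.7% for 30 against 12 h and 14.7% for 30 against 20 h. Of the calls 3.80, 10.0, 3.85 and 0% were false in these 4 comparisons, in this order. A gene that was not called is thus not shown to be unchanged. With 3 libraries against 3 an exact permutation test cannot go below 0.1, so none was used. The cultures were made in triplicate, but the labels do not say what a replicate number shares, so p-values measure the spread between these libraries. Alternatives were DESeq2 1.42.0, RLE factors, no filter, a coding-length offset, only the libraries compared, a replicate block, limma on log2 of the deposited RPKM plus 1 or 0.1, and each library left out in turn.

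Named genes were the 15 largest rises and 10 largest falls with at least 20 reads on average and no overlap between groups, all list members past the threshold, the strain markers and the 5 largest differences of response in each direction. Members, lists, markers and this rule were chosen with earlier results of these data known. A search of RefSeq descriptions gave 91 retrotransposon genes, after 7 named genes that only mention such elements were dropped, and these were left out of the named genes. Lists are given by counts and medians, without a set test. Of the 6717 identifiers 6025 matched the RefSeq annotation of R64, which gave names and promoters. Gene coordinates are those of the deposited tables. Promoters were read from the R64 genome by locus tag.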

Additional observations from a re-analysis of the deposited data

Results flagged for a closer look

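The response of strain 11 to mixed culture at 30 h differed from that of strain 12 by the edgeR interaction test in 1 gene, SSU1, by 4.18 on the log2 scale. SSU1 had 3.44 in the libraries labelled strain 11 and -0.74 in strain 12, and 3 of 3 mixed libraries of strain 11 lay above the single ones. A change within strain 11 and RNA of strain 12 in the sorted fraction cannot be told apart, and the call was lost without strain 11 mixed replicate 1 or single replicate 1 or 2. The response of strain 11 differed between 30 h and 12 h in 90 genes. Those with a higher response at 30 h include the aromatic aminotransferase ARO9 (difference 5.36), the decarboxylase ARO10 (5.21), the amino acid permease AGP1 (4.63), YHR137C-A (3.92), which overlaps ARO9 and can share its reads, and the chaperone BTN2 (3.30). ARO9, AGP1 and BTN2 were not changed at 30 h itself (adjusted p = 0.345, 0.296 and 0.0712), and ARO9 and AGP1 were lower in mixed culture at 12 h (-3.83 and -2.82). HXK2 (2.91), DLD3 (2.56) and CIT2 (2.36), which rose at 30 h, also differed. Those with a lower response at 30 h include GRE1 (-6.34), OSW2 (-5.55), SPS100 (-4.94), THI13 (-4.90) and the aldehyde dehydrogenase ALD3 (-4.64), and further PDC6 (-3.57), YDL218W (-3.57) and THI4 (-2.08). GRE1, SPS100 and ALD3 were far higher in mixed culture at 12 h (6.15, 4.72 and 4.38) and near 0 at 30 h (-0.19, -0.22 and -0.26).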

How the results depend on the processing

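Against 140 genes, 90 higher and 50 lower, a fit on the 6 compared libraries alone called 85 (50 higher), limma on log2(RPKM + 0.1) called 78 (14 lower) and limma on log2(RPKM + 1) called 17 lower genes. DESeq2 called 173, 116 of them among the 140. Leaving out a library gave 33 to 191 genes, 31 to 120 higher and 2 to 71 lower, with the fewest without mixed replicate 2 and the most without mixed replicate 1. Of 74 named genes called at 30 h, limma with a pseudocount of 0.1 or 1 ended the call of 38 and 30, the compared libraries alone of 16 and leaving out mixed replicate 2 of 48, while no direction was reversed. For the difference between the strains, against 1 gene, no low-count filter gave 23 (10 higher, 13 lower), the compared libraries alone 4 (2 higher, 2 lower) and limma, with either pseudocount, 0 genes. Leaving out a library gave 0 to 2 genes, all of them higher, with 0 lower. For 30 h against 12 h, limma with a pseudocount of 1 or 0.1 gave 42 and 37 genes (12 and 11 higher, 30 and 26 lower) and leaving out a library 43 to 115 (12 to 37 higher, 31 to 78 lower), with the fewest without mixed replicate 2 at 30 h. For 30 h against 20 h each alternative gave 0 genes. The level of strain 12 markers in the sorted mixed libraries, 16.8% over 3 markers, was 27.4% with SSU1 alone, 18.7% with YHB1 alone and 15.4% with OPT2 alone.

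The replicate numbers gave no sign of pairing at 30 h. Deviations from the group means correlated by 0.00685, -0.0478 and 0.0148 between mixed and single libraries of strain 11 with the same number, and by -0.0717, -0.0530 and 0.0289 between the mixed libraries of strains 11 and 12. A fit with the replicate block called 135 genes (87 higher), 124 of them among the 140. With the block, of the named genes AI3, ATP6, BI3, CPR6 and THI20 were no longer called at 30 h, nor BTN2 for 30 h against 12 h.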

Other observations

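Some genes that no list holds were chosen after their values were seen. DFP3 had 0 reads in all 3 single libraries and 9, 12 and 12 reads in the mixed libraries of strain 11, at least 10.2-fold higher when the single cultures are set to 3 reads over the group. Its mean in strain 12 in mixed culture was 14.4 CPM, below the 92.3 to 119 CPM of strain 11. Among the genes that fell were 4 transporters, picked here for their values. FCY21, of the purine-cytosine permease family, had 160, 146 and 245 CPM in single and 57.8, 15.4 and 49.4 CPM in mixed culture (-2.19 ± 0.52, adjusted p = 0.00684, edgeR), and FCY22 fell by 1.65 ± 0.48. FUI1, the uridine permease, had 541, 184 and 277 CPM against 116, 69.3 and 98.8 CPM (-1.82 ± 0.45, adjusted p = 0.0101), and YCT1, a cysteine transporter, 357, 276 and 310 CPM against 116, 38.5 and 118 CPM (-1.82 ± 0.46, adjusted p = 0.0107). In FCY21, FUI1 and YCT1 each mixed library lay below each single one, but without mixed replicate 2, when AI2 and SUL2 were the 2 genes called lower, none of the 4 was called.

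The reads of AI2 for each read of COX1, a ratio within a library that depth does not set, differed between the strains. It was 2.17, 2.02 and 1.56 in strain 11 in single culture and 0.209 to 0.350 in strain 12 in single culture. In mixed culture it was 1.09, 1.75 and 1.495 in strain 11 and 0.364 to 0.504 in strain 12. Mixed replicate 1 of strain 11 was thus nearest to strain 12 and replicate 2 nearest to strain 11 alone, the order seen for SSU1 and YNL284C-B but not for YHB1. The ratios of replicates 1, 2 and 3 rest on 73, 63 and 157 reads of AI2 and on 67, 36 and 105 reads of COX1. They are given without a counting interval, so their order is not shown to exceed counting error. The genes overlap, and the relation was not tested.

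Mixed replicate 2 and the SSU1 level of the sorted libraries limit this comparison, as does depth. With a median of 2 to 6 reads per gene, a change in many genes was not detectable at this depth.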
